A study of Homo sapiens with 12 samples.

Results

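Chromosome 19 carries the densest population of zinc finger genes in the human genome. The genes described here bear a ZNF symbol made of a number and at most 1 further letter, lie on chromosome 19, and reached a mean of 20 or more counts over the 6 libraries of the S371A table. Of 261 chromosome 19 genes with such a name, 142 met that minimum and 119 did not. Over all chromosomes 58302 genes are listed in the S371A table, and 50868 are listed for S55A. All 142 members were found in the S55A table by gene identifier, 135 of them with identical coordinates. The members were thus chosen by their measured mean count, so that these genes are expressed in SW1990 is a condition and not a finding. Just inside the minimum were ZNF763 with a mean of 20.83 counts, ZNF724 with 23.17 and ZNF442 with 28.17. Just outside were ZNF887P with 19.5, ZNF709 with 19 and ZNF773 with 17.17. Of the 119 genes left out, 59 were listed at 0 in all 6 libraries of the S371A table.

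RNA was sequenced from SW1990, a line derived from a pancreatic adenocarcinoma that had metastasised to the spleen, after 24 h in DMEM lacking glucose. The cells had been grown in DMEM with 10% FBS. PHGDH catalyses the first committed step of serine synthesis from glycolytic carbon. In experiment 1, WT rPHGDH cells (WT-1) stood beside rPHGDH S371A cells, and in experiment 2 WT rPHGDH cells (WT-2) stood beside rPHGDH S55A cells, with 3 libraries in each of the 4 groups. All 4 groups were SW1990 under the same glucose deprivation, so no glucose-fed cells enter any comparison. The labels do not say what the prefix r means, nor whether endogenous PHGDH had been removed. Nor do they say whether the libraries of a group came from separate cultures or clones, and the p-values therefore rest on variation among libraries that may be technical replicates.

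C2H2 zinc finger proteins read DNA through repeated fingers that each contact a few bases. Most of those encoded on chromosome 19 carry a KRAB domain, which binds the corepressor TRIM28 (KAP1). TRIM28 in turn brings the histone methyltransferase SETDB1, heterochromatin proteins and the NuRD complex to the bound site, and many such proteins silence transposable elements. The genes arose by tandem duplication and sit in clusters of similar sequence, and ZNF274 places SETDB1 and H3K9 methylation on the 3′ ends of ZNF genes themselves.

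The finger unit recurs within each gene and between genes, and it is shown for 5 members that passed the tests below. Each line is 1 finger unit of 84 bases on the coding strand, 5′ to 3′, cut from exon 4 of the 4-exon GENCODE 29 transcript (GRCh38), and the capitals mark the linker between fingers. The unit of ZNF845 lies at chr19:53351654-53351737 on the plus strand and that of ZNF222 at chr19:44032191-44032274 on the plus strand. On the minus strand lie those of ZNF28 at chr19:52800783-52800866, ZNF468 at chr19:52841400-52841483 and ZNF91 at chr19:23362100-23362183.
ZNF845: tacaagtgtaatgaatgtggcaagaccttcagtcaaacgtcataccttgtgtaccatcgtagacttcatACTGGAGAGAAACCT
ZNF28: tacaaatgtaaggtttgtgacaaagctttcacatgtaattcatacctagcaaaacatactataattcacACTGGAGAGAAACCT
ZNF468: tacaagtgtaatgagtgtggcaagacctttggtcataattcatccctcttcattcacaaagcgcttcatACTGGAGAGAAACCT
ZNF91: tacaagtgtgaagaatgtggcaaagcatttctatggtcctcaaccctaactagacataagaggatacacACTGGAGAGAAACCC
ZNF222: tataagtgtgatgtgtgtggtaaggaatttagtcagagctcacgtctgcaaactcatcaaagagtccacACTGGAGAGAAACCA
Between any 2 of these units, 60.7% to 76.2% of the 84 bases were identical, the highest value being that of ZNF845 and ZNF468. Each unit is the first in its reading frame to match a pattern that requires the linker and the cysteines and histidines of the finger. The shared linker thus follows from the choice, and the identity values include these required positions. The other bases before the linker, which encode the DNA-contacting part of the finger, differ in part.

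A reading frame was found for 141 members, with 1 to 32 fingers and a median of 13. ZNF91 had the most fingers, 32, followed by ZNF845 with 26. A pattern of the KRAB domain, scored as 8 of 10 fixed positions, was present in 113 of the 141. The members' transcripts had a median GC content of 43.3% against 48.3% for all genes tested in experiment 1. For 47 members, 10% or more of the 50-base windows of their transcripts also occur in another gene, and for 9 members 50% or more do. Windows were matched on either strand, and the other gene can be a copy or a gene whose exons overlap those of the member. For 30 members, 10% or more of the exonic bases lie under another gene of the same strand. ZNF564, for example, shared 84.7% of its windows, chiefly with AC010422.6, and had 69.85% of its exonic bases under a same-strand gene. Reads of shared sequence could have been split with the other gene. The counting is not stated to use strand. Reads of a gene on the opposite strand may therefore be included for the 18 members with 10% or more of their exonic bases opposite another gene.

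Library totals ran from 13667033 to 19240270 counts, so the 3 counts taken as the floor correspond to 0.156 to 0.22 CPM, the count scaled to library size. The members together took 0.244% to 0.28% of the counts of a library. Their median mean count was 210, against 358.2 for all genes tested in experiment 1. Mitochondrial genes took 5.96% to 7.32%. Markers of ductal epithelium summed to 3400 to 6940 CPM per library, with KRT7 and MUC1 low at 0.394 to 5.29. Each mutant lay above its wild type, at 5180 to 5620 CPM for WT-1, 5990 to 6940 for S371A, 3400 to 3680 for WT-2 and 4620 to 4930 for S55A. The fibroblast sum was 21.5 to 23.9 CPM for WT-1, 10.3 to 12.7 for S371A, 9.5 to 18.97 for WT-2 and 14.9 to 26.9 for S55A. In experiment 1 it was carried by PDGFRB, with COL1A2, COL3A1, DCN and LUM at 0. In experiment 2 PDGFRB reached at most 14.9 CPM. There COL1A1 reached 5.18 CPM, COL1A2 3.11, DCN 3.0, COL3A1 2.29 and LUM 1.2. The acinar sum, carried by PRSS1 with CELA3A and PNLIP at 0, was 4.56 to 7.11 CPM for WT-2 and 1.73 to 3.67 for S55A. Endothelial markers summed to at most 0.508 CPM and leukocyte markers to at most 2.39, with CD3E at 0. The part of these markers in the values of the zinc finger genes was not tested. PHGDH, the gene whose form differs between groups, fell in both mutants. WT-1 averaged 474 ± 19.6 CPM and S371A 201 ± 20.7, while WT-2 averaged 726 ± 17.5 and S55A 357 ± 9.13 (SD, n = 3), with edgeR adjusted p-values of 0.000316 and 7.2e-05. Its counts cannot separate the introduced from the endogenous form.

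Levels were compared between genes on the deposited FPKM scale, which divides by gene length. The members were low on it, with a median mean FPKM of 1.45 in experiment 1 against 3.28 over all genes tested, and a range from 0.097 to 20.5. ZNF146, a protein made almost wholly of fingers, stood first in both tables with a mean of 20.45 FPKM in experiment 1 and 21.59 in experiment 2. ZNF787 followed in experiment 1 at 12.18, then ZNF358 at 11.15, ZNF581 at 10.33 and ZNF121 at 9.372. In experiment 2 the same genes had 13.41, 5.931, 19.33 and 7.809 FPKM. The KRAB pattern was found in none of these 5. Their edgeR adjusted p-values ran from 0.0897 to 0.643 in S371A and from 0.0691 to 0.861 in S55A, so that no call was made for them. The 2 tables were normalised separately and rest on different annotation, so these levels were not tested across them.

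Few of the chromosome 19 zinc finger genes passed the test in S371A, and most of the estimated changes were small. Of the 142 members tested with edgeR's quasi-likelihood test, 5 passed a Benjamini-Hochberg adjusted p of 0.05, which is 3.52%, beside 12.6% of the 16235 genes tested. Of the 5, 4 rose (7.05% of all genes rose) and 1 fell (5.53% of all genes fell). At an unadjusted p of 0.05 there were 24 members, 16.9%, against 29.4% of all genes. The members' median log2 fold change was 0.03 and that of all genes -0.01, and 128 members lay within 0.5 of zero on the log2 scale. The CPM of the groups did not overlap for 34 members, 23.9%, beside 36.5% of all genes. Among ZNF-named genes on other chromosomes with the same minimum 15 of 219 passed, and among the other chromosome 19 genes 92 of 782. Precision was lower for the members, with a median standard error of 0.14 on the log2 scale against 0.11 for all genes. In bulk RNA, fewer cells with a transcript and less transcript per cell cannot be told apart, here and in what follows.

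ZNF845, with its 26 fingers at chr19:53333749-53354869, measured 6.81, 5.31 and 7.08 CPM in the WT-1 libraries, and 8.85, 11.1 and 10.7 in those of S371A. All 3 S371A libraries lay above all 3 of WT-1. The log2 fold change was 0.67 ± 0.15 (SE, edgeR adjusted p = 0.0291). For ZNF383 the WT-1 libraries held 5.05, 5.13 and 4.06 CPM, those of S371A 6.59, 9.76 and 8.19, again without overlap, and the gene rose by 0.79 ± 0.17 on the log2 scale (edgeR adjusted p = 0.03). For ZNF222 the values were 8.56, 10.3 and 9.0 CPM (WT-1) against 12.2, 13.1 and 12.1 (S371A). Its groups stood apart by less than 2 CPM, and the log2 change was 0.43 ± 0.10 (edgeR adjusted p = 0.0381). ZNF254 went from 19.5, 18.5 and 20.03 CPM to 23.8, 26.6 and 25.2, a log2 change of 0.38 ± 0.07 with an edgeR adjusted p of 0.0203. ZNF561 was the single member that fell, from 64.5, 61.8 and 63.7 CPM to 54.8, 55.5 and 52.4, a log2 change of -0.22 ± 0.05 with an edgeR adjusted p of 0.0267. The adjusted p-values of the 5 lay between 0.0203 and 0.0381. With 1 library left out, 0 of the members passed in edgeR's test without S371A library 2 or without WT-1 library 3 (24 members each at an unadjusted p of 0.05), 1 without WT-1 library 1, 2 without S371A library 3, 3 without WT-1 library 2 and 5 without S371A library 1. DESeq2 on all 6 libraries called 8.

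The S371A change largest in size belonged to ZNF763, the member just inside the count minimum, and did not pass. It reached the minimum through the S371A libraries, where it was high, so the selection favoured a rise. Its counts were 9, 18 and 5 (WT-1) against 40, 28 and 25 (S371A), for a log2 estimate of 1.75 ± 0.48 with an edgeR adjusted p of 0.0602. The WT-1 libraries of ZNF431 held 3.71, 3.13 and 2.03 CPM and the S371A libraries 1.06, 1.11 and 1.98, for a log2 estimate of -1.09 ± 0.32 with an edgeR adjusted p of 0.0713. In neither gene did the groups overlap, but the groups of ZNF431 came within 0.1 CPM of each other. Both were picked here after their values were seen.

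Members of the family both rose and fell in S55A. Of the 141 members tested, 14 passed edgeR's test, 9.93%, beside 16.0% of the 15521 genes tested; ZNF724 was too low to be tested. Of the 14, 10 rose (8.97% of all genes rose) and 4 fell (7.06% of all genes fell). At an unadjusted p of 0.05 there were 39 members, 27.7% against 32.0%. The members' median log2 fold change was 0.08 against -0.01 for all genes, 90 values were positive and 51 negative, and 121 members lay within 0.5 of zero. The groups did not overlap for 46 members, 32.6%, beside 38.2% of all genes. Over the ZNF-named genes of other chromosomes 12 of 219 rose and 17 fell, with a median of 0.02. Over the other chromosome 19 genes 89 of 773 rose and 41 fell, with a median of 0.04. The median member stood at 3.42 to 3.52 on the log2 CPM scale in WT-2 and at 3.61 to 3.86 in S55A, where library 3 was highest and also held the 0.28% share of counts. Leaving out WT-2 library 1 or 3 brought the number of members that passed to 7, and leaving out WT-2 library 2 to 8.

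**Figure D1:**
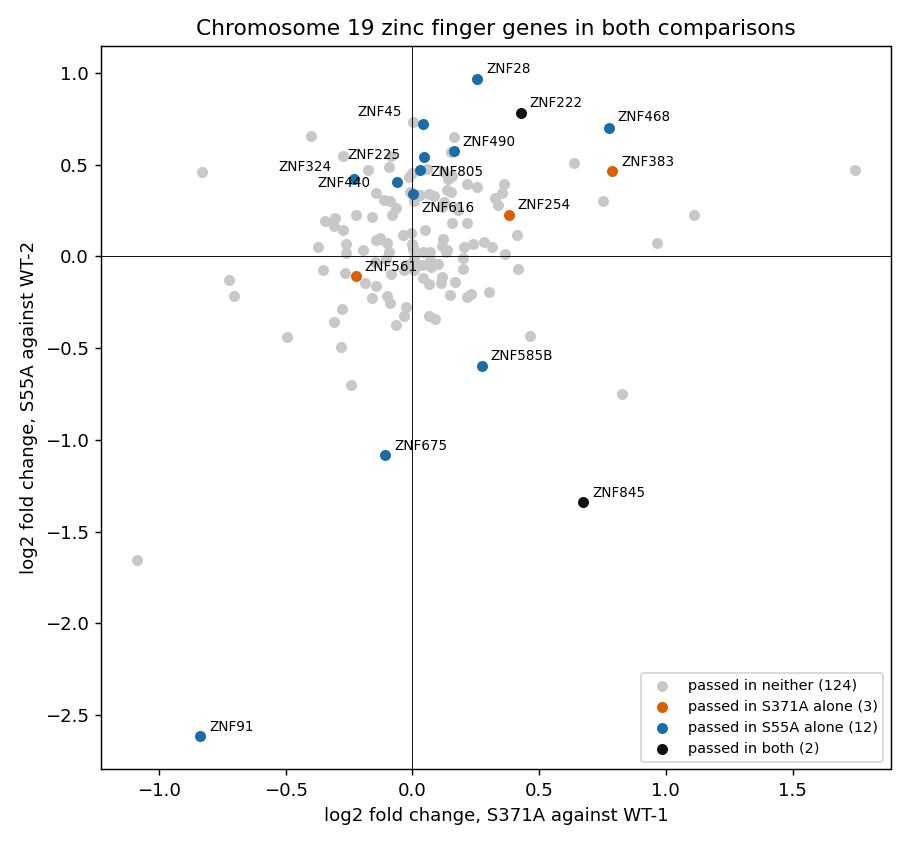
Log2 fold change of each member in S371A against WT-1 (horizontal axis) and in S55A against WT-2 (vertical axis), for the 141 members tested in both. Each point is 1 gene, coloured by the comparison in which its edgeR adjusted p was below 0.05. The called members are named, ZNF845 lies in the lower right quadrant at 0.67 and -1.34, and ZNF91 lies lowest at -2.61.

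ZNF91, the member with 32 fingers and a repressor of SVA retrotransposons in human cells, fell furthest. It drew 44, 37 and 32 counts from the WT-2 libraries, and 3, 9 and 9 from those of S55A, which is 2.48, 2.68 and 1.90 CPM against 0.167, 0.491 and 0.465. Every S55A library was below every WT-2 library, and S55A library 1 was at the floor of 3 counts. The log2 fold change was -2.61 ± 0.37 (SE, edgeR adjusted p = 0.00319). In experiment 1 the WT-1 libraries themselves ran from 0.825 to 3.40 CPM and the S371A libraries from 1.11 to 1.41, for a log2 estimate of -0.84 ± 0.51 with an edgeR adjusted p of 0.334. ZNF675, which encodes an inhibitor of TRAF6 signalling, lies in the same run of genes and went from 27, 18 and 20 counts to 12, 9 and 14. Those groups did not overlap either, and the log2 change was -1.08 ± 0.29 (edgeR adjusted p = 0.0385), a call that was lost whichever library was left out.

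ZNF845 went the opposite way from experiment 1. It went from 6.14, 3.48 and 6.10 CPM (WT-2) to 1.84, 1.80 and 2.58 (S55A), with no overlap, and fell by 1.34 on the log2 scale (SE 0.27, edgeR adjusted p = 0.0131). ZNF585B went from 5.01, 5.37 and 5.51 CPM to 2.9, 3.93 and 3.67, a log2 change of -0.60 ± 0.17 with an edgeR adjusted p of 0.046. Of its transcript windows 26.2% also occur in another gene, chiefly ZNF585A, and leaving out any of the 6 libraries ended its call.

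Of the members that rose in S55A, ZNF28 changed most. The WT-2 libraries stood at 10.1, 10.5 and 14.3 CPM, those of S55A at 23.3, 21.2 and 23.8, so that the lowest S55A library stood well above the highest of WT-2. The log2 fold change was 0.97 ± 0.14 (SE, edgeR adjusted p = 0.0042). ZNF468 went from 20.7, 19.1 and 21.3 CPM to 28.4, 33.4 and 37.4, a log2 rise of 0.70 ± 0.11 (edgeR adjusted p = 0.00582). ZNF28 occupies chr19:52797409-52857600 and ZNF468 chr19:52838008-52857649 on the same strand, so that their spans overlap. For ZNF468, 53.3% of the exonic bases lie under another gene of that strand, and 99.2% of the windows also occur in another gene, chiefly ZNF320. For ZNF28 the same shares were 0.49% and 5.93%.

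ZNF222 rose in S55A as in S371A, from 6.42, 5.15 and 6.10 CPM (WT-2) to 9.43, 8.95 and 12.1 (S55A). The S55A libraries were all higher, and the log2 fold change was 0.78 ± 0.16 (SE, edgeR adjusted p = 0.0151). ZNF805 showed narrow groups, 12.8, 12.3 and 12.3 CPM against 17.2, 17.2 and 17.5, a log2 change of 0.47 ± 0.09 with an edgeR adjusted p of 0.0132. ZNF225 rose by 0.54, ZNF490 by 0.57 and ZNF45 by 0.72 on the log2 scale. ZNF324 rose by 0.42, ZNF440 by 0.41 and ZNF616 by 0.34, with edgeR adjusted p-values of 0.0184 to 0.0427 over these 6 genes. The groups of all 6 were separate in CPM. ZNF490 shares 70.9% of its windows with other genes and ZNF324 shares 34.2%.

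**Figure D2:**
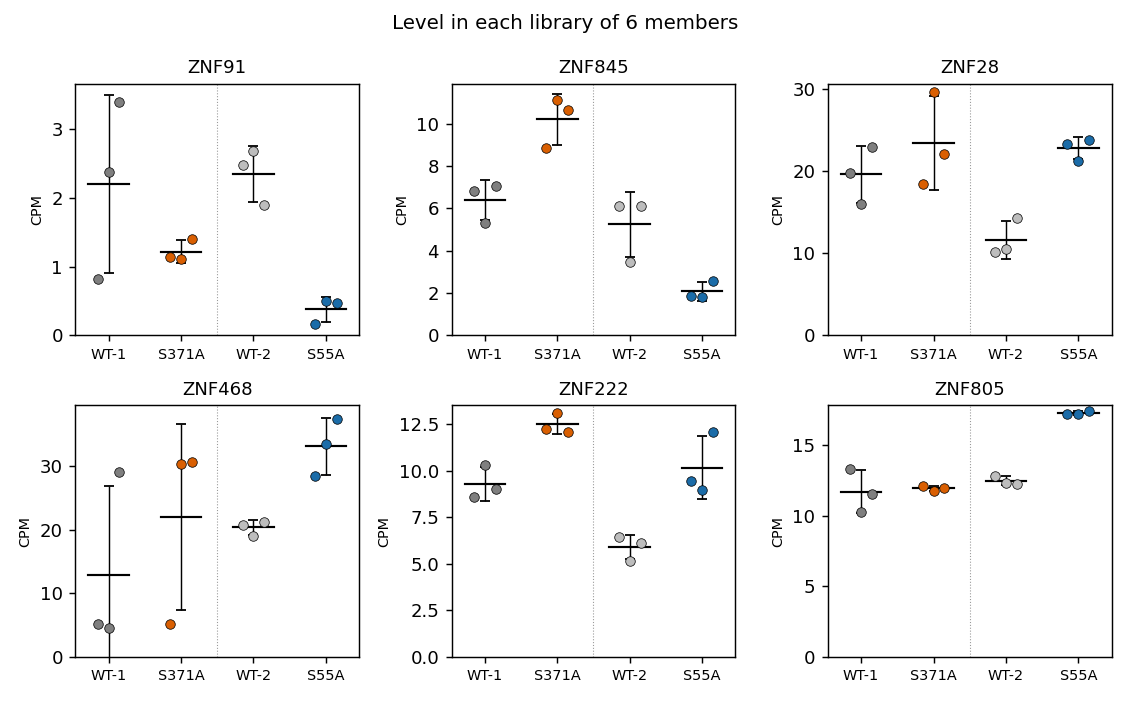
CPM of 6 members in each library (vertical axis, from 0), by group along the horizontal axis. Points are libraries, the bar is the mean of 3 libraries and the whisker the SD. The S55A libraries of ZNF91 and ZNF845 lie below those of WT-2, the S55A libraries of ZNF28, ZNF468, ZNF222 and ZNF805 lie above, and the S371A libraries of ZNF845 and ZNF222 lie above WT-1.

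The calls for ZNF91, ZNF28, ZNF468, ZNF845, ZNF222 and ZNF805 in S55A held in each of the 6 fits that left a library out and in each of 10 other settings. By contrast, those for ZNF585B, ZNF440, ZNF616 and ZNF675 were lost in all 6 fits without a library. The call for ZNF45 was kept in 1 of these 6 fits, those for ZNF324 and ZNF225 in 3 each and that for ZNF490 in 4. In S371A, ZNF561 lost its call in all 6, and the other 4 genes in 5 of 6.

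Set side by side over the 141 members tested in both, 2 passed in both mutants, 1.42%, beside 3.9% of the 15126 genes tested in both. ZNF222 was higher in both, and ZNF845 was higher in S371A and lower in S55A. In 1 or both mutants 17 members passed, 12.1%, beside 25.3% of those genes. The mutants have separate wild-type libraries, and over 141 members the log2 fold changes of S371A and S55A had a Pearson r of 0.28, against 0.17 over 15126 genes tested in both. Genes are not independent replicates, so this is a description. Among the members, 56 were higher in both mutants, 26 lower in both, and 59 had opposite signs, which is 39.7%, 18.4% and 41.8%. Over all genes the shares were 26.8%, 29.3% and 43.9%.

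The difference between the mutant effects, (S371A against WT-1) minus (S55A against WT-2), was tested over all 12 libraries. Of 142 members, 7 passed, 4.93%, beside 12.5% of 16666 genes; 4 were positive (6.43% of all genes) and 3 negative (6.1% of all genes). The number that passed was 3 without S55A library 2 or WT-1 library 1, and 4 without S371A library 3 or WT-1 library 3. Each mutant belongs to 1 experiment, so mutant and experiment cannot be told apart in these values. ZNF845 differed most, by 2.02 ± 0.31 on the log2 scale (SE, edgeR adjusted p = 0.00182), and kept its call whichever of the 12 libraries was left out. ZNF675 differed by 0.98 ± 0.27, ZNF480 by 0.90 ± 0.22 and ZNF585B by 0.87 ± 0.21, with edgeR adjusted p-values of 0.0346, 0.0211 and 0.0191. ZNF480 passed in neither mutant alone. Its CPM were 22.6, 32.8 and 32.5 for WT-1, 38.1, 41.4 and 41.5 for S371A, 21.4, 28.1 and 19.7 for WT-2 and 16.9, 15.6 and 18.6 for S55A, so that its S371A libraries lay above their wild type and its S55A libraries below theirs. ZNF225 differed by -0.49 ± 0.14, ZNF175 by -0.49 ± 0.13 and ZNF780A by -0.47 ± 0.12, with edgeR adjusted p-values of 0.0394, 0.0306 and 0.0287. ZNF175 (OTK18), known as a repressor of the HIV promoter in macrophages, went from 12.4, 11.2 and 11.7 CPM to 10.9, 10.2 and 10.9 in S371A and from 9.35, 8.92 and 8.53 to 10.5, 12 and 11.6 in S55A. ZNF780A went from 29.9, 28.9 and 30.2 CPM to 26.9, 20.4 and 24.5 in S371A and from 40.1, 39.0 and 38.6 to 42.5, 44.7 and 44.8 in S55A. For both genes the mutant libraries lay below the wild type in experiment 1 and above it in experiment 2, and neither passed in a single mutant. For ZNF91 the difference was 1.78 ± 0.67 with an edgeR adjusted p of 0.113, so its fall in S55A was not shown to differ from its value in S371A.

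Along the chromosome the members fell into 16 runs when a gap of over 1 Mb between starts opened a new one. The 38 genes from ZNF628 to ZNF446 (chr19:55476332-58481230) formed the longest run, followed by 23 genes from ZNF175 to ZNF761 (chr19:51571298-53458261) and 20 from ZNF575 to ZNF296 (chr19:43525497-45076588). Of all genes 8.97% rose in S55A and 7.06% fell. Each run holds few calls, and whether any run departs from those shares was not tested. In the run of 20, 3 members rose, and the median log2 fold change was 0.26. In the run of 23, 3 rose and 1 fell, with a median of 0.19. In the run of 38, 2 rose, with a median of 0.03. In S371A the same runs had medians of 0.02, 0.07 and 0.00. These medians were not tested.

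The stretch from ZNF431 to ZNF254 (chr19:21142024-24129961) holds 26 ZNF genes of this naming, of which 5 were members and 13 were listed at 0 in all 12 libraries. By the 1 Mb rule the stretch spans more than 1 run. ZNF431 stands in a run of its own (chr19:21142024-21196053), and the other 4 members form the next (chr19:23221599-24129961). In the latter lie the falls of ZNF91 and ZNF675 in S55A. ZNF431 went from 32, 9 and 13 counts to 12, 2 and 5, groups that overlapped. Its log2 fold change was -1.66 ± 0.63, with an edgeR adjusted p of 0.113. ZNF724, not tested, drew 16, 9 and 8 counts from WT-2 libraries against 1, 7 and 9. ZNF254, the member with the most counts in this stretch, went from 16.9, 5.08 and 14.4 CPM to 13.4, 12.7 and 16.9, for a log2 estimate of 0.23 ± 0.43 with an edgeR adjusted p of 0.767. ZNF91, ZNF675, ZNF431 and ZNF724 had at most 72 counts in any library. This stretch was singled out after its values were seen.

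**Figure D3:**
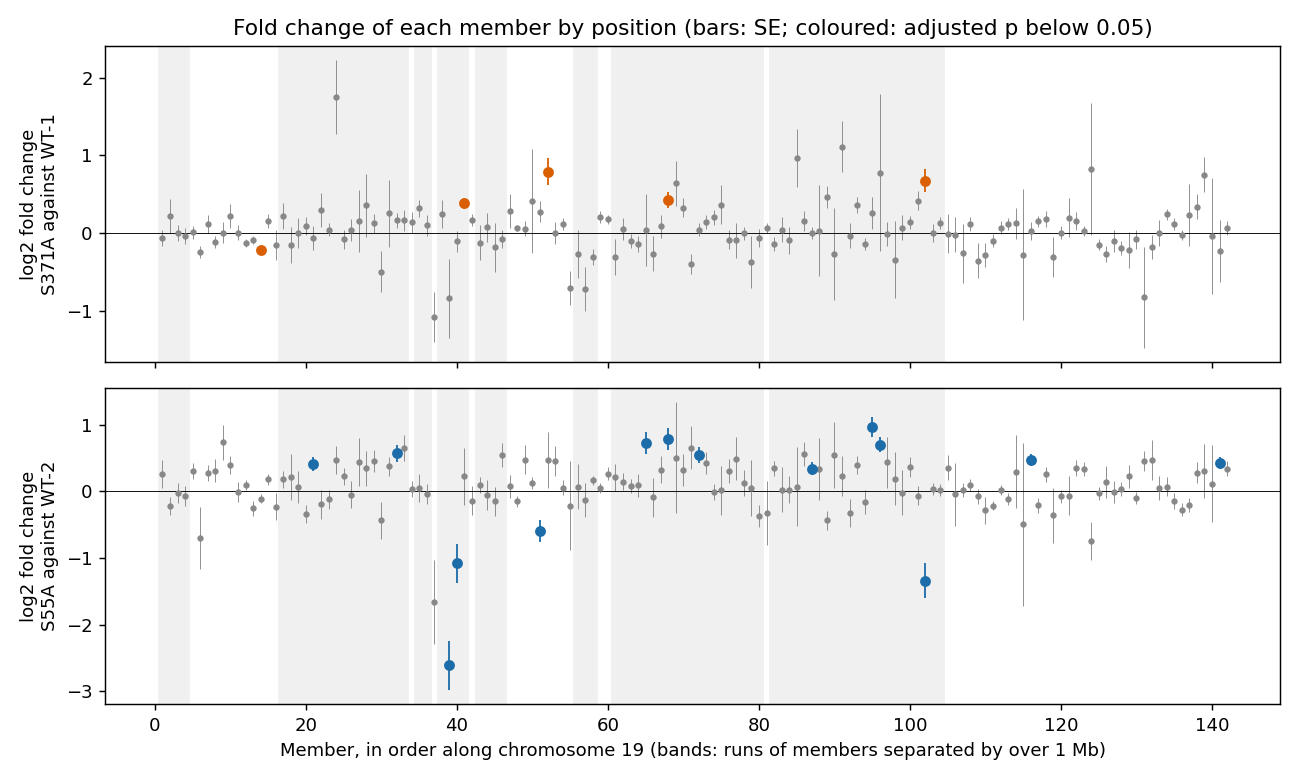
Log2 fold change of each member in S371A (upper panel) and S55A (lower panel), in order of position along chromosome 19, with the SE as a bar. Shaded and white bands separate the 16 runs, and coloured points had an edgeR adjusted p below 0.05. ZNF91 lies lowest in the lower panel at -2.61, and the called rises are spread over 4 runs.

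Of 9 genes listed for a role described in human cells, 5 were members. ZNF91 passed in S55A as above, and ZNF274, ZNF224, ZNF473 and ZNF653 passed in neither mutant. ZNF274, which directs SETDB1 to ZNF genes, went from 20.4, 20.01 and 20.8 CPM to 23.2, 25.8 and 23.1 in S371A, groups that did not overlap, without passing (log2 0.24 ± 0.07, edgeR adjusted p = 0.0771). In S55A its log2 estimate was 0.07 ± 0.14. ZNF224, a repressor of the aldolase A gene, stood at 37.1, 30.5 and 34.5 CPM for WT-1 and 29.2, 26.5 and 21.8 for S371A. In experiment 2 it went from 16.4, 17.5 and 15.2 CPM to 28, 14.4 and 35.0. The values of S55A overlapped those of WT-2, and neither comparison passed (edgeR adjusted p = 0.0797 and 0.224). Of its exonic bases 40.5% lie opposite another gene. ZNF473, a factor in histone pre-mRNA processing, had log2 estimates of 0.07 ± 0.06 in S371A and -0.32 ± 0.48 in S55A. For ZNF653, a repressor of the nuclear receptor SF-1, the estimates were 0.21 ± 0.17 and 0.18 ± 0.12. The edgeR adjusted p-values of ZNF473 and ZNF653 ran from 0.356 to 0.704. ZNF93, a repressor of LINE-1 elements, ZNF350, a partner of BRCA1, and the imprinted ZNF331 were listed at 0 in all 6 libraries of experiment 1 and so did not enter. ZNF420, with a mean of 7.67 counts, was below the minimum.

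Of the members with the KRAB pattern, 5 of 113 passed in S371A, 4.42% beside 12.6% of all genes, and 13 of 112 in S55A, 11.6% beside 16.0%. Of the 28 members without it, 0 passed in S371A with edgeR and 0 with DESeq2 (3 and 1 at an unadjusted p of 0.05), 1 passed without S371A library 3, and 1, ZNF490, passed in S55A. Whether the pattern and the calls go together was not tested.

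The machinery through which KRAB proteins act was examined as a list of 30 corepressor and H3K9 methylation genes. In S371A, 0 of the 30 passed with edgeR and 0 with DESeq2 (6 and 3 at an unadjusted p of 0.05), beside 12.6% of all genes called and 29.4% at an unadjusted p of 0.05. Without S371A library 1, 1 gene of the list passed. With all 6 libraries the median log2 fold change of the list was 0.03. In S55A, 7 of 30 passed, 23.3%, beside 16.0% of all genes; 6 fell and 1, MORC3, rose, and the median was -0.15. ATRX, a chromatin remodeller that acts with DAXX on heterochromatin, went from 161.3, 157.5 and 160.0 CPM to 102, 87.7 and 108. Its groups were far apart, and the log2 fold change was -0.68 (edgeR adjusted p = 0.00182). CBX3 and CBX5, the heterochromatin proteins HP1 gamma and HP1 alpha, changed by -0.42 and -0.39 on the log2 scale. UHRF1, which recruits the maintenance DNA methyltransferase, went from 24.7, 24.2 and 26.2 CPM to 16.7, 19.3 and 12.1, a log2 change of -0.65. The NuRD subunits HDAC1 and MTA1 changed by -0.28 and -0.26, and MORC3, a silencing ATPase, by 0.26. The edgeR adjusted p-values of these 6 genes ran from 0.00652 to 0.0467. Only 3 genes of the list passed, all lower, without S55A library 1, WT-2 library 1 or WT-2 library 3, and MORC3 lost its call whichever library was left out.

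TRIM28 and SETDB1, the core of the complex, passed in neither mutant. TRIM28 averaged 304 ± 18.8 CPM for WT-1 and 318 ± 7.96 for S371A, and 393 ± 32.4 for WT-2 and 389 ± 12.3 for S55A (SD, n = 3), with log2 fold changes of 0.06 and -0.01 and edgeR adjusted p-values of 0.492 and 0.921. The log2 estimates of SETDB1 were -0.07 and -0.10, with adjusted p-values of 0.274 and 0.359 from edgeR. The difference between the mutant effects passed for 7 of the 30, 23.3%, beside 12.5% of all genes, all positive: ATRX by 0.71, UHRF1 by 0.71, CBX3 by 0.50, DNMT1 by 0.45, CBX5 by 0.36, MTA2 by 0.28 and CHD4 by 0.26 on the log2 scale. That count was 1 without WT-2 library 1, 2 without WT-2 library 3, S371A library 3 or WT-1 library 2, and 3 to 6 without any other library bar S55A library 2, where 4 were positive and 1 negative. With the replicate block it was 2. The list was measured more precisely than the zinc finger genes and than all genes. Its median log2 standard error in S55A was 0.08, against 0.17 for the zinc finger genes and 0.12 for all genes tested. In the difference it was 0.10 against 0.19 for all genes. The part of this precision in the share of the list that passed was not tested.

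Some members jumped between libraries of a single group. A gene was counted when its highest library in a group reached 10 CPM and stood at least 3 times above the lowest, a rule chosen after the values had been seen. In experiment 1 this held for 7 of 94 members with such a level, 7.45%, beside 1.93% of 10947 genes, and in experiment 2 for 5 of 91, 5.49%, beside 1.5% of 10702. ZNF-named genes on other chromosomes had a like share, 14 of 187 and 11 of 190. The other chromosome 19 genes had 12 of 555 and 9 of 569.

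ZNF264 showed the widest range. Experiment 1 gave 34.8, 35.9 and 37.8 CPM (WT-1) and 42.8, 3.15 and 43.5 (S371A). Experiment 2 gave 3.83, 31.4 and 37.0 CPM (WT-2) and 5.30, 5.13 and 40.5 (S55A). The low level was thus met in S371A library 2, WT-2 library 1 and S55A libraries 1 and 2, in a mutant and in a wild-type group alike. Its log2 fold change in S55A was -0.49 ± 1.22. ZNF417 was low in the same S371A library, with 14.7, 2.22 and 14.6 CPM, against 16.9 to 19.6 in WT-1. ZNF473 had 13.5, 44.0 and 46.9 CPM in S55A against 42.1 to 44.5 in WT-2, the low value being in S55A library 1. ZNF468 stood at 5.11, 4.50 and 29.1 CPM (WT-1) and 5.17, 30.3 and 30.6 (S371A), where its low and high levels occurred in both groups; this is the gene that rose in S55A with tight groups. ZNF260 stood at 34.2, 14.1 and 11.2 CPM (WT-1) and 9.35, 36.2 and 33.7 (S371A). ZNF766 had 26.6, 10.4 and 49.6 in S371A and 32.8, 9.86 and 31.9 in WT-2, and ZNF888, ZNF564, ZNF254 and ZNF17 complete the 10 genes. No single library held all the low values. Of these 10, ZNF254 in S371A and ZNF468 in S55A are among the calls above; without the 10 genes, 4 members passed in S371A, 13 in S55A and 7 in the difference.

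Sequence shared with other genes did not mark all of the jumping members. ZNF264 shared 3.02% of its windows, ZNF766 1.68% and ZNF260 2.67%, while ZNF417 shared 40.2% and ZNF564 84.7%. Whether the jumps arose in the cells, in the libraries or in the counting was not tested. ZNF888 in addition stood at 19.8 to 21.7 CPM in WT-1 and at 0.363 to 0.619 in WT-2. It was the single member of 85 with 10 CPM in a wild type whose WT-1 and WT-2 means were 3-fold or more apart. That is 1.18%, beside 216 of 10703 genes, 2.02%. The coordinates of ZNF888 differ between the tables, while 193 of those 216 genes have the same coordinates in both. The part of the coordinates in its levels was not tested.

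**Figure D4:**
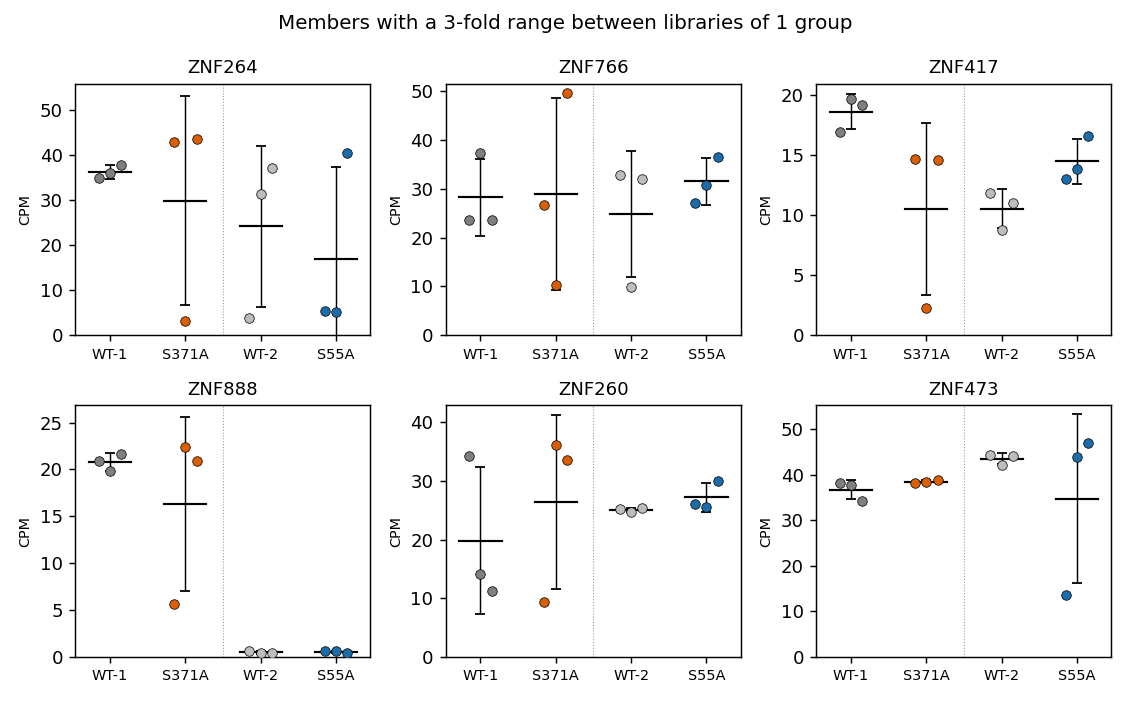
CPM of 6 members with a range of 3-fold or more between libraries of a group (vertical axis, from 0), by group along the horizontal axis. Points are libraries, the bar is the mean of 3 libraries and the whisker the SD, cut at 0. The low points of ZNF264 fall in S371A, WT-2 and S55A, and ZNF888 is near 0 in experiment 2.

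Promoter sequence was compared because it is a property that the rule did not use. RefSeq windows of 250 bases before to 50 after the start (GRCh38.p14) were found for 125 of the 142 members. The windows of all genes were taken without a count minimum. Those of the members and of the ZNF-named genes elsewhere belong to genes that met it. A difference from all windows can thus reflect the minimum as well as the family. The core CCGGAAG, recognised by ETS transcription factors and searched on both strands, occurred in 53 of 125 windows, 42.4%, against 10.67% of all 27305 windows and 37.71% of those of 175 ZNF-named genes elsewhere. The AP-1 element TGANTCA occurred in 8.8% of the members' windows, against 7.76% of all and 3.43% (6 of 175) for the ZNF-named genes elsewhere. The interferon response element (GAAA, any 2 bases, GAAA) occurred in 0 of 125, against 3.65% of all and 2.86% (5 of 175) for the ZNF-named genes elsewhere. No match of 1 motif overlapped that of another. The members' windows had a median of 22 CpG and 61.33% GC against 14 and 58.33% over all. Of the 16 members with a window that passed in a mutant, 9 held the ETS core, 56.2%, against 44 of the 109 others, 40.4%. Whether these shares differ was not tested. A match is a description of letters and does not show that a factor bound.

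The windows of the 2 members that passed in both mutants are given with the ETS core in capitals, 5′ to 3′ on the plus strand, at chr19:53333499-53333798 for ZNF845 and chr19:44025129-44025428 for ZNF222. In the second the core stands on the opposite strand and is printed as its reverse complement.
ZNF845: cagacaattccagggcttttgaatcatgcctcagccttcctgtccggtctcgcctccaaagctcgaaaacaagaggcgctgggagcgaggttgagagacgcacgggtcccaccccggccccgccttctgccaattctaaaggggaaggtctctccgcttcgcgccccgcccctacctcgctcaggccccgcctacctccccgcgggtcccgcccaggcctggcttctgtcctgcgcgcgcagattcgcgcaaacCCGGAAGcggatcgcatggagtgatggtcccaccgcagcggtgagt
ZNF222: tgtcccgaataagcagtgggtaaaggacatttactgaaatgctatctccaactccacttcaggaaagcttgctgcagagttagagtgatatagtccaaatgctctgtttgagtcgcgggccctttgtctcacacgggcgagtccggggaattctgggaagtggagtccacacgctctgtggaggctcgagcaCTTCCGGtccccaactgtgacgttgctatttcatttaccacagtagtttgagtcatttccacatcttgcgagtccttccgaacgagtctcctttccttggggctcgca
Both windows hold an ETS core and an AP-1 match, the latter not marked above, a combination met in 5 of the 125 members with a window. These windows were picked by the calls of their genes, and a link between the combination and the calls was not tested. The 2 genes moved the same way in S371A and opposite ways in S55A.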

How the data were processed

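The 2 tables of gene counts come from total RNA of 12 libraries, with 1 table per experiment and 6 libraries in each. The authors deposited whole-number read counts per gene, not normalised, and beside them FPKM, which the authors divided by gene length and library size, per the file headers. Per the submitters' processing notes, CASAVA, HISAT2 2.0.4, StringTie 1.3.0 and edgeR were used, and the builds GRCh38 and mm10 are named without roles. Which counter, annotation release and strand setting were used is not given in the sources used here. The treatment text of the labels speaks of a microarray, whereas the tables hold sequencing counts. The wild-type columns carry the same names in both tables. They were assigned to WT-1 or WT-2 by the mutant in the same table, and the number in a column name was read as the replicate number.

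Each mutant was tested against the wild type of its own table with edgeR 4.0.16 (R 4.3.3): filterByExpr on the counts, TMM factors, robust quasi-likelihood F test, Benjamini-Hochberg adjustment over all genes tested and a threshold of 0.05. CPM use the TMM-scaled totals. SE is the size of the log2 fold change divided by the square root of F. The difference between the mutant effects was fitted over the 12 libraries after joining 50356 genes by identifier. The scripts were tested on simulated counts. Total counts of 13667033 to 19240270 per library set a floor of 3 counts at 0.156 to 0.22 CPM, and floors cover counting error only.

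Named genes were the called members without overlap between groups (up to 10 per direction), members called in both mutants, up to 5 called differences per direction, the 5 highest in FPKM, those around the count minimum, members with described roles, and TRIM28, SETDB1, called corepressor genes and PHGDH. Fingers, KRAB pattern and 50-base windows came from GENCODE 29 transcripts (GRCh38) and their longest reading frames, in place of the RefSeq proteins first planned. Promoters came from RefSeq. Alternatives were DESeq2 1.42.0, limma 3.58.1 on log2(FPKM + 1) and log2(FPKM + 0.1), RLE and upper quartile factors, no filter or 1 CPM in 3 libraries, a GC offset (lowess span 0.3), a replicate block, and each library left out. The members, lists and tests were chosen with earlier results of these data known.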

Additional observations from a re-analysis of the deposited data

Results flagged for a closer look

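The effect of S371A against WT-1 and that of S55A against WT-2 differed in the test of the difference itself (edgeR over 12 libraries) for 7 zinc finger genes and 7 of the corepressor list, beside 2087 of all 16666 genes tested, 12.5%. Each value is the log2 effect of S371A minus that of S55A. Among the zinc finger genes it was 2.017 for ZNF845, 0.978 for ZNF675, 0.9 for ZNF480 and 0.874 for ZNF585B. It was -0.492 for ZNF225, -0.486 for ZNF175 and -0.471 for ZNF780A. ZNF845 and ZNF585B kept the call whichever of the 12 libraries was left out, while ZNF675 and ZNF225 kept it in 3 of the 12 fits. Among the corepressor and H3K9 genes it was 0.714 for UHRF1, 0.713 for ATRX, 0.504 for CBX3, 0.449 for DNMT1, 0.361 for CBX5, 0.279 for MTA2 and 0.264 for CHD4. Mutant and experiment cannot be told apart in these values.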

How the results depend on the processing

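In S371A, where 5 members passed, 8 passed with DESeq2 and 3 with limma on log2(FPKM + 1) or log2(FPKM + 0.1). In S55A, where 14 passed, 8 passed with limma at either pseudocount and 18 with the GC offset alone. With that offset 2765 of all genes passed in S55A, against 2488 without it. The GC offset alone left 5 members in S371A and 7 in the difference. In the difference, where 7 passed, 4 passed with no filter. With 1 library left out, 0 to 5 members passed in S371A, 7 to 15 in S55A and 3 to 10 in the difference. Over all genes, 917 to 1576 passed in S371A without 1 library and 1344 to 2491 in S55A. The cause was not tested, beyond fewer libraries entering these fits.

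The replicate numbers did not pair the libraries: the correlations of same-numbered deviations ran from -0.09 to -0.01 in S371A and from -0.05 to -0.003 in S55A. With the replicate block, 0 members (23 at an unadjusted p of 0.05) and 784 genes passed in S371A, 8 members and 1632 genes in S55A, and 4 members and 1098 genes in the difference. With the replicate block and a GC offset together, 0 members (24 at an unadjusted p of 0.05) and 835 genes passed in S371A, 10 members in S55A, and 3 members and 1244 genes in the difference.

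The median log2 fold change of the members stayed positive in both mutants under each of these settings. The sign of TRIM28 in S55A, -0.01, turned to 0.015 without S55A library 3 and 0.046 without WT-2 library 3, and ran from -0.073 to 0.046 over the fits that left out a library. The difference for SETDB1, 0.03, turned to -0.011 without S55A library 1 and -0.007 without WT-2 library 1, and ran from -0.011 to 0.061. Neither passed. Leaving out the 10 members with a 3-fold range within a group, chosen after seeing the data, gave 4, 13 and 7 members. Depth limits the members under 50 mean counts, of which 14 are in S371A's table.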
